A study of Rattus norvegicus with 20 samples.

Results

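Synaptotagmins are vesicle and plasma membrane proteins whose paired C2 domains couple calcium entry to membrane fusion. Syt1 and Syt2 are fast calcium sensors of transmitter release, and Syt2 serves this role in rodents at the calyx of Held, the giant terminal that the globular bushy cell forms in the brainstem. Other members bind calcium with higher affinity or slower kinetics, and some do not bind it through one or both C2 domains. This section follows 10 synaptotagmin genes, Syt1 to Syt7 together with Syt9, Syt11 and Syt12, in rat globular bushy cells. The members are all probe sets that the platform annotation gives to exactly 1 of these symbols: 14 probe sets for the 10 genes, out of 20832 probe sets for 14218 genes on the array with 1 annotated gene.

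The animals were Sprague Dawley rats that had received the retrograde tracer cholera toxin B in the medial nucleus of the trapezoid body opposite to the sampled ventral cochlear nucleus. Labelled cells, 200 per animal, were taken 24 hours later from 12 µm sections with a laser, and their RNA was extracted together and amplified before hybridisation. The 3 groups were P3 (6 arrays, just after the calyx forms), P8 (9 arrays, juvenile) and P21 (5 arrays, mature), and the labels name no genetic change in any of them. The labels call the samples biological replicates and name no litter, so p-values measure the spread between these samples. In such pooled samples a lower signal from fewer cells of a type cannot be told apart from less RNA per cell.

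Levels below are log2(intensity + 1) of 1 probe set, and differences are between age means on that scale, with the standard error from limma. A level is compared only with the same probe set at another age, since probe sets differ in brightness for reasons of design. P8 replicates 5 to 9 differed from all other arrays. Their median intensity was 58.9 to 67.5, where the remaining 15 had 23.8 to 32.5, and their spike-in controls averaged 12.76 to 13.71, where the remaining 15 had 8.29 to 9.09. Results are from the 15 arrays of P3, P8 replicates 1 to 4 and P21, and replicates 5 to 9 are given apart. Of the 14 probe sets, 9 for 9 genes lay above log2 4 on at least 5 of the 15 arrays and were tested. The other 5, which include all 3 of Syt7, were too dim. Syt6, Syt9 and Syt12 passed this filter mainly through the ages at which they were higher, so a difference between ages was partly built into their passing.

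The label of the cells was checked against markers. The vesicular glutamate transporter Slc17a6 of excitatory neurons lay between 10.96 and 11.72 on all 15 arrays. Of 12 listed bushy cell and fast auditory neuron genes 9 were on the array under an annotated probe set, and 8, 9 and 9 of them averaged above log2 4 at P3, P8 and P21. Their mean level per array was 7.25 to 7.58, 7.66 to 8.71 and 9.17 to 9.40. The mean level of 10 oligodendrocyte genes was 4.48 to 5.77 at P3, 7.17 to 8.54 at P8 and 8.28 to 9.25 at P21. The mean of 4 inhibitory neuron genes was 5.24 to 6.71 at P3, 4.87 to 5.26 at P8 and 4.24 to 5.35 at P21. Among them Gad1, a GABA-synthesising enzyme, averaged 9.42, 8.93 and 8.42, while the glycine transporter Slc6a5 was near background at 2.76, 1.90 and 2.37. The gap between the GAPDH control probe sets at the 3' and 5' ends, a sign of RNA length, was 2.52 to 3.20 at P3, 2.91 to 3.86 at P8 and 3.30 to 4.71 at P21. The same gap of the actin controls did not rise in this way, with 4.30 to 5.03 at P3, 4.07 to 4.46 at P8 and 3.84 to 5.51 at P21. None of the listed marker genes was at 0 on every array of a group. The part of these cell markers and of RNA length in the changes of the synaptotagmins was not tested.

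Syt3, Syt12, Syt2 and Syt9 rose, Syt5 and Syt6 fell, and Syt1, Syt4 and Syt11 did not pass the test. Thus 4 of 9 tested probe sets were called higher, where 20.1% of all 15650 tested probe sets were, and 2 of 9 were called lower, where 19.0% were. The median difference was 0.27 over the 9 and 0.02 over all probe sets, and the 9 spanned -2.36 for Syt5 to 1.81 for Syt3. From P3 to P8 Syt3 and Syt12 rose and none fell, against 7.81% called higher and 7.75% called lower over all probe sets. From P8 to P21 Syt3 rose and Syt5 fell, against 8.31% and 8.42%. These shares describe 9 probe sets only.

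**Figure D1:**
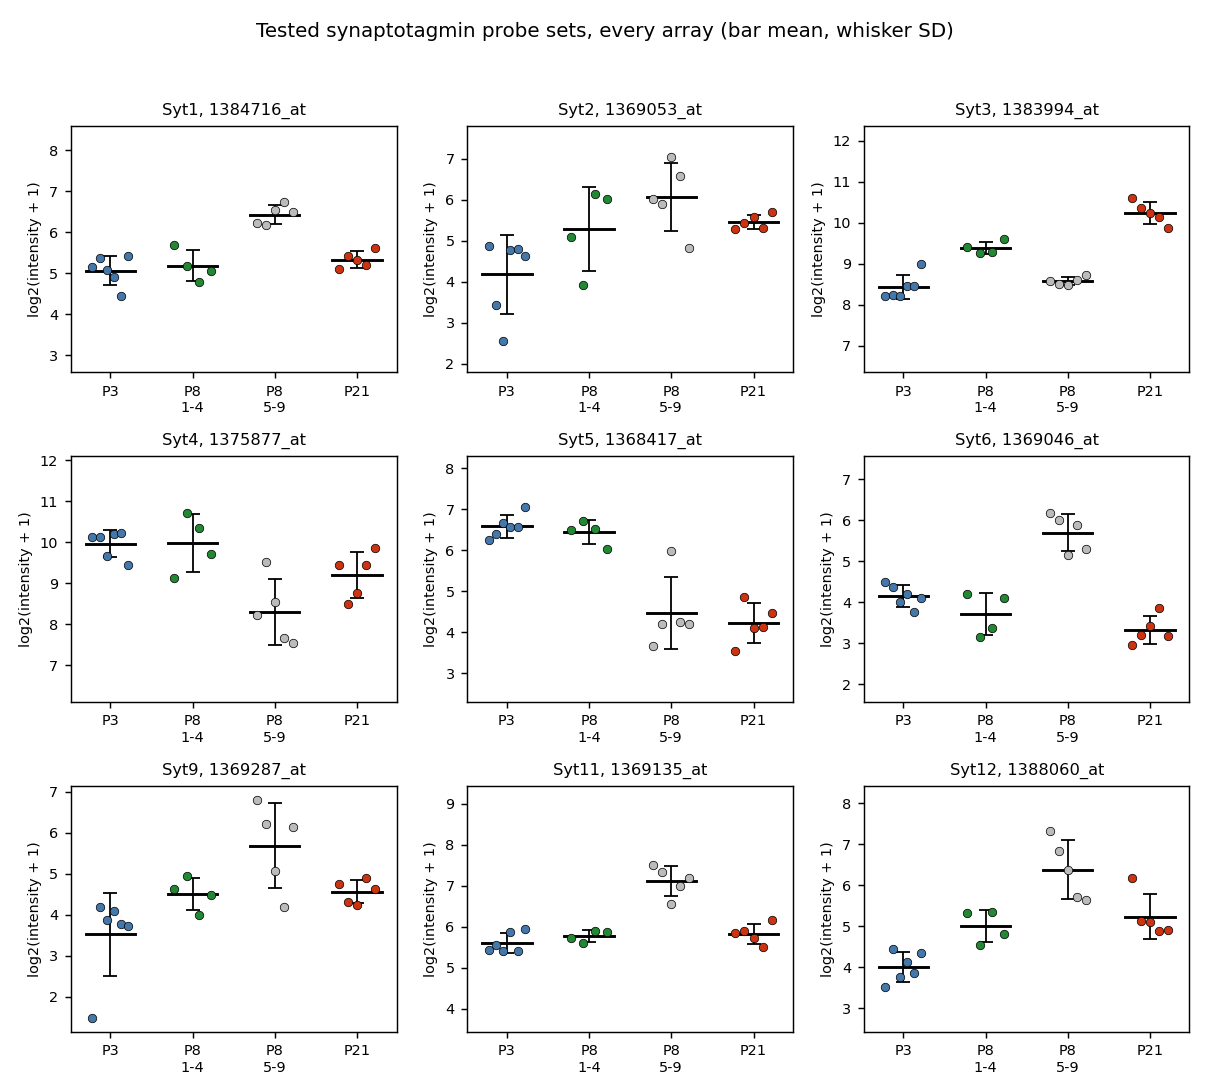
Level of the 9 tested synaptotagmin probe sets on every array, as log2(intensity + 1) on the vertical axis of each panel, by age on the horizontal axis, with P8 replicates 5 to 9 in grey beside P8 replicates 1 to 4. Bars are means and whiskers SD, and every panel spans the same number of log2 units. Syt3 climbed at each age from 8.43 to 9.39 and 10.24, Syt5 held 6.58 and 6.44 and then stood at 4.22, and the Syt1 means of these ages lay between 5.06 and 5.33.

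Syt1, the fast calcium sensor of most forebrain synapses, showed no change that passed the test. Its probe set 1384716_at ran from 4.45 to 5.43 at P3 with a median of 5.11. It read 5.69, 5.18, 4.78 and 5.06 at P8 and 5.10, 5.42, 5.31, 5.21 and 5.62 at P21. The 3 ages overlapped, although P3 replicates 3, 4 and 5 lay below every P21 array. The difference from P3 to P21 was 0.27 ± 0.20 with a 95% interval of -0.15 to 0.69 (limma adjusted p = 0.300). The annotation gave Syt1 no other probe set.

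Syt2, the fast sensor of the calyx of Held, was higher at P21 than at P3, and its SD was 0.96 at P3, 1.02 at P8 and 0.17 at P21. Probe set 1369053_at ranged from 2.56 to 4.87 at P3 with a median of 4.70, because replicates 2 and 3 read 3.43 and 2.56 while the other 4 arrays lay between 4.63 and 4.87. At P8 it read 5.08, 3.93, 6.13 and 6.01, and at P21 5.28, 5.42, 5.56, 5.32 and 5.70. All 5 P21 arrays lay above all 6 P3 arrays, whereas P8 overlapped both ages. The rise from P3 to P21 was 1.28 ± 0.45, or 2.43-fold (limma adjusted p = 0.0331). Leaving out single arrays ended the call for 5 of 15 (adjusted p = 0.0715 without P3 replicate 2, 0.0623 without P3 replicate 3, and 0.0550, 0.0615 and 0.0646 without P21 replicates 2, 3 and 5). It also ended when all 20 arrays were fitted (adjusted p = 0.0956), and with a pseudocount of 16 the rise was 0.77 and called (adjusted p = 0.0220). The first and second steps were 1.11 ± 0.48 and 0.17 ± 0.49 (adjusted p = 0.127 and 0.847). Without P8 replicate 2 the first step was 1.56 and passed (adjusted p = 0.0363).

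Because Syt1 and Syt2 do the same job, their balance within each array was followed as log2 Syt2 minus log2 Syt1. This quantity says how unequally the 2 signals changed and not which transcript was more abundant. It was -0.28, -1.94, -2.51, -0.12, 0.34 and -0.80 in P3 replicates 1 to 6. At P8 it was -0.61, -1.25, 1.34 and 0.94, and at P21 it was 0.18, 0.01, 0.25, 0.11 and 0.08. Its zero depends on the brightness of both probe sets, so only differences between ages are read. The mean went from -0.88 ± 1.11 (SD, n = 6) to 0.13 ± 0.09 (SD, n = 5), and the ages overlapped through P3 replicate 5. The difference of 1.01 did not pass a two-sided exact permutation test (p = 0.0693, 0.208 after adjustment over the 3 pairs of ages, where 0.00216 is the smallest p that 462 regroupings allow). Without P3 replicate 5, the only array that made these ages overlap, it was 1.25 and passed (adjusted exact permutation p = 0.0238). This was the 1 of 15 omissions of a single array that passed. The highest adjusted exact permutation p among them was 0.314, without P21 replicate 1. The differences for the first and second step were 0.99 and 0.02 (exact permutation p = 0.210 and 0.976, 0.314 and 0.976 after adjustment).

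**Figure D2:**
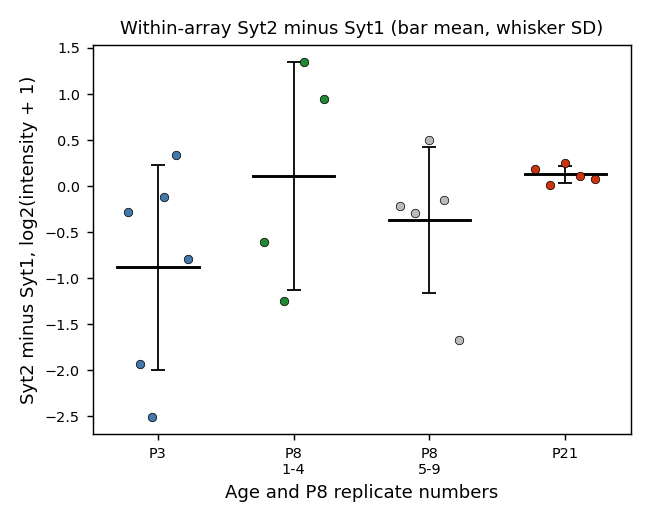
Within-array difference of log2(intensity + 1) between Syt2 and Syt1 on the vertical axis, by age on the horizontal axis, with every array as a point, the mean as a bar and the SD as a whisker. The P21 arrays lie close together between 0.01 and 0.25, and the P3 arrays spread from -2.51 to 0.34.

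Syt5 and Syt9 carry crossed names: the RefSeq gene table lists SytIX as a synonym of Syt5 and Sytv as one of Syt9, so functions published under either name cannot be read off the symbol. Syt5 had the largest fall of the 9 tested probe sets. Probe set 1368417_at lay between 6.25 and 7.06 at P3 with a median of 6.57, and read 6.50, 6.71, 6.52 and 6.04 at P8. At P21 it read 3.54, 4.85, 4.11, 4.12 and 4.47, below every P3 and P8 array. From P3 to P21 it fell by 2.36 ± 0.22, or 5.15-fold (limma adjusted p = 1.11e-06), and from P8 to P21 by 2.22 ± 0.24 (adjusted p = 3.64e-05). Over all 20 arrays the fall from P8 to P21 was -1.12 and not called (adjusted p = 0.0905), and the replacement of the P8 arrays described further on ended it too. The step from P3 to P8 was -0.14 ± 0.23 with a 95% interval of -0.64 to 0.35 (adjusted p = 0.719).

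The sizes of the 2 Syt5 steps were compared as the second step minus the first step. This contrast was added after the Syt5 values had been seen, so it is no independent test. It takes each step as a whole. The span from P8 to P21 is longer in days than that from P3 to P8, so rates of change are not compared. The contrast was -2.08 ± 0.42 (limma adjusted p = 0.0147), the 1 of 9 tested members called lower, against 2.35% of all probe sets called lower and 2.06% called higher. The call ended without P8 replicate 2 (-1.90, adjusted p = 0.0546) and without P8 replicate 3 (-2.03, adjusted p = 0.0508). It also turned when P8 replicates 5 to 9 took the place of replicates 1 to 4, which is described further on.

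Syt9 was higher at P21 than at P3, with a call that many settings ended. Probe set 1369287_at ran from 1.49 to 4.18 at P3 with a median of 3.82, and P3 replicate 1 alone gave the lowest value while the other 5 lay between 3.72 and 4.18. It read 4.63, 4.93, 3.99 and 4.48 at P8 and 4.74, 4.30, 4.23, 4.90 and 4.61 at P21. Every P21 array exceeded every P3 array, by as little as the gap between 4.18 and 4.23. The rise from P3 to P21 was 1.04 ± 0.39 (limma adjusted p = 0.0467). Without P3 replicate 1 it was 0.63 ± 0.19 and still called (adjusted p = 0.0197). Leaving out single arrays ended the call for 10 of 15 (highest adjusted p = 0.0963, without P21 replicate 4) and in fits with no filter, with the 2 ages alone, with a variance trend and with array weights (adjusted p = 0.0607, 0.0597, 0.0508 and 0.0727). It ended too over all 20 arrays (adjusted p = 0.220) and with P8 replicates 5 to 9 in place of 1 to 4 (adjusted p = 0.136). With a pseudocount of 16 the rise was 0.48 and was called (adjusted p = 0.0239).

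Syt3, a high-affinity calcium sensor that has been tied to fast vesicle resupply at the calyx of Held and to receptor endocytosis on the postsynaptic side, rose at both steps. Probe set 1383994_at lay between 8.20 and 8.99 at P3 with a median of 8.34. It read 9.40, 9.27, 9.28 and 9.60 at P8 and 10.59, 10.36, 10.23, 10.14 and 9.87 at P21. No array of one age overlapped with another age. The rise was 0.96 ± 0.18 at the first step, 0.85 ± 0.19 at the second and 1.81 ± 0.17 over the whole span, or 3.51-fold (limma adjusted p = 0.00316, 0.00622 and 1.25e-06). The test of the second step against the first did not pass (-0.11 ± 0.33, adjusted p = 0.879). Because the steps span unequal numbers of days, this does not show an even pace. Over all 20 arrays the step from P3 to P8 was 0.51 and not called (adjusted p = 0.0960). With single arrays left out the whole rise lay between 1.72 and 1.93 and was called in all 15.

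Syt6, which belongs with Syt3 to the members that form disulfide-bonded dimers and is known from the sperm acrosome, fell from P3 to P21. Probe set 1369046_at lay between 3.75 and 4.50 at P3 with a median of 4.15. It read 4.20, 3.15, 3.38 and 4.10 at P8 and 2.96, 3.20, 3.42, 3.87 and 3.17 at P21. P21 replicate 4, at 3.87, lay above P3 replicate 5, at 3.75, and the other arrays of these ages were apart. From P3 to P21 it fell by 0.83 ± 0.22, or 1.78-fold (limma adjusted p = 0.00781). The call ended over 20 arrays (adjusted p = 0.308), and with a pseudocount of 16 the difference was -0.39 and called (adjusted p = 0.0210). All 5 P21 arrays were below log2 4, the level used for the filter. The single steps of -0.45 ± 0.24 and -0.39 ± 0.25 did not pass (adjusted p = 0.212 and 0.310).

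**Figure D3:**
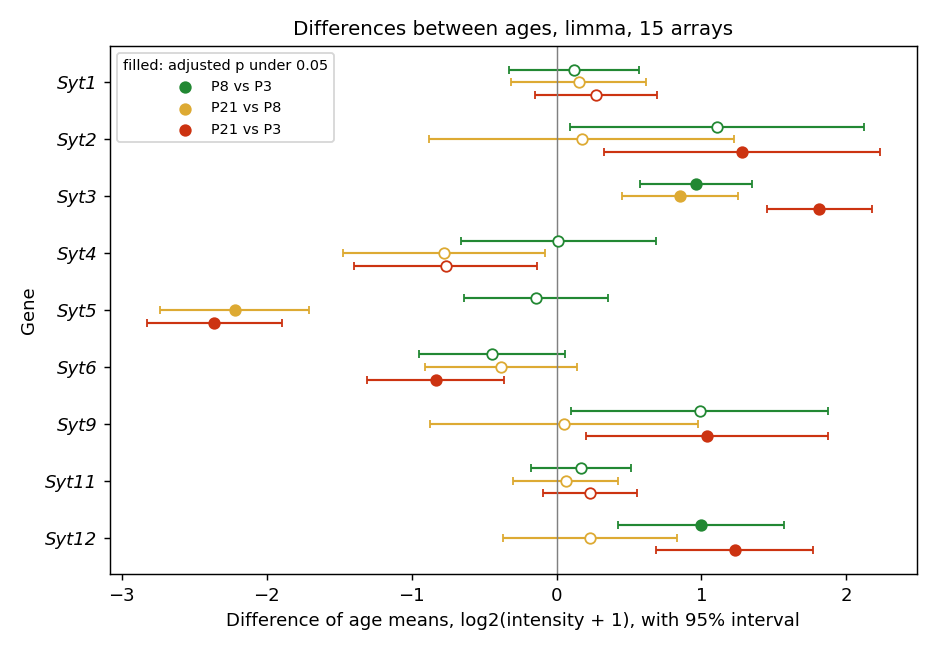
Differences between age means of the 9 tested synaptotagmin probe sets, on the horizontal axis in log2(intensity + 1) with 95% intervals from limma over 15 arrays; genes are on the vertical axis, colours mark the pair of ages and filled points have an adjusted p under 0.05. The Syt3 differences lie to the right of 0 for all 3 pairs of ages, and the Syt5 step from P3 to P8 at -0.14 stands apart from its fall of -2.22 from P8 to P21.

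Syt12, a relative whose C2 domains do not bind calcium, rose from P3 to P8. Probe set 1388060_at lay between 3.52 and 4.45 at P3 with a median of 4.00. It read 5.33, 4.55, 5.34 and 4.82 at P8 and 6.18, 5.13, 5.10, 4.88 and 4.90 at P21. Every P8 and every P21 array lay above every P3 array, and P8 and P21 overlapped. The rise was 1.00 ± 0.27 from P3 to P8 and 1.23 ± 0.25 from P3 to P21 (limma adjusted p = 0.0221 and 0.00138). The step from P8 to P21 was 0.23 ± 0.28 (adjusted p = 0.618). The call from P3 to P8 ended without P8 replicate 1 (0.89, adjusted p = 0.0576) and without P8 replicate 3 (0.89, adjusted p = 0.0618). That step was 0.60 with a pseudocount of 16 and 1.76 over 20 arrays, called in both (adjusted p = 0.0355 and 0.00530). That from P3 to P21 ended over 20 arrays (adjusted p = 0.0617), and with a pseudocount of 16 the rise was 0.77 and called (adjusted p = 0.00219). The test of the second step against the first did not pass (-0.76 ± 0.49, adjusted p = 0.380).

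Syt4 and Syt11 share a substitution in the first C2 domain that removes a calcium-binding residue. Syt4 probe set 1375877_at lay between 9.45 and 10.22 at P3 with a median of 10.13. It read 9.13, 10.72, 10.35 and 9.72 at P8 and 9.44, 8.50, 8.77, 9.45 and 9.86 at P21. The ages overlapped. The difference from P3 to P21 was -0.77 ± 0.30, just short of the threshold (limma adjusted p = 0.0519). It passed when 1 of 5 of the 15 arrays was left out (lowest adjusted p = 0.0255, without P21 replicate 5, where the difference was -0.93) and, among other settings, with 1 probe set per gene (adjusted p = 0.0466), a filter at log2 6 (0.0354) and array weights (0.0111). It did not pass over all 20 arrays (adjusted p = 0.382) or with P8 replicates 5 to 9 in place of 1 to 4 (0.112). Without P21 replicate 2 the difference was -0.59, with the highest adjusted p of the fits with 1 array left out (0.139).

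Syt11 probe set 1369135_at showed no change that passed the test. It lay between 5.41 and 5.93 at P3 with a median of 5.49, read 5.71, 5.59, 5.89 and 5.87 at P8, and 5.84, 5.90, 5.72, 5.51 and 6.17 at P21. The difference from P3 to P21 was 0.23 ± 0.15 with a 95% interval of -0.09 to 0.56 (limma adjusted p = 0.250).

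Syt7, the slow high-affinity sensor of asynchronous release and facilitation, could not be followed. Its probe set 1369185_a_at lay between 1.38 and 2.85 at P3, 1.63 and 3.72 at P8 and 1.72 and 4.13 at P21, and only P21 replicate 1 exceeded log2 4. The other 2 probe sets, 1370514_a_at and 1370515_x_at, stem from the same source sequence in the annotation and are not independent. They averaged 1.65 and 1.79 at P3, 1.23 and 1.10 at P8 and 1.04 and 2.22 at P21. A signal this dim does not show that the transcript is absent, and no difference of Syt7 was tested.

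Syt3 and Syt4 each had another probe set that was too dim to test, and neither repeated the values of the bright one. For Syt3, 1369058_at averaged 2.02, 2.35 and 3.21 at P3, P8 and P21, all 15 arrays below log2 4. Its difference from P3 to P21 was 1.18 on the log2 scale, in the direction of the tested probe set, with overlapping ages. For Syt4, 1387662_at averaged 2.94, 1.87 and 2.94, and P3 replicate 1 alone read 5.46. Its difference from P3 to P21 was 0.00 where the bright probe set gave -0.77. The members above are therefore known through 1 informative probe set each.

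**Figure D4:**
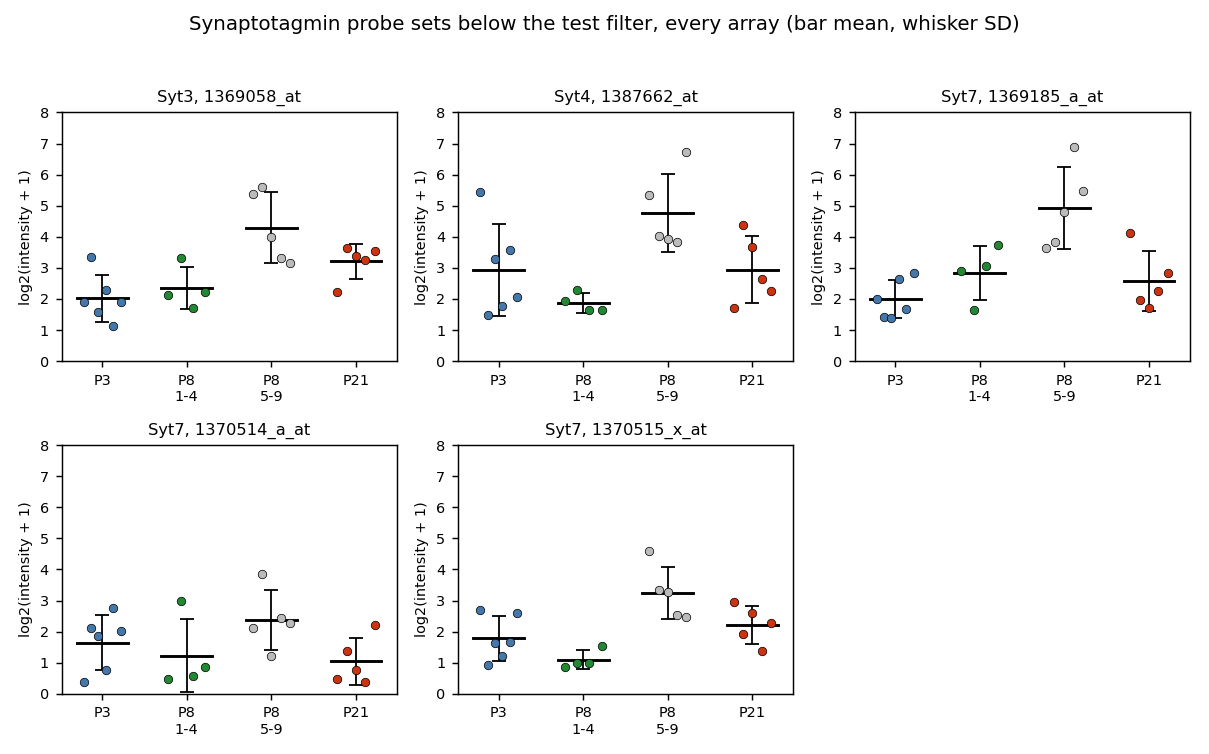
Level of the 5 synaptotagmin probe sets that were too dim to test, as log2(intensity + 1) on the vertical axis from 0 to 8, on every array by age, with P8 replicates 5 to 9 in grey, means as bars and SD as whiskers. Among the 15 coloured points of each panel few exceed 4, and the grey points of Syt7 probe set 1369185_a_at range from 3.63 to 6.90.

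The P8 arrays 5 to 9 gave another picture of the same age. Between the sets of P8 arrays 6 of the 14 synaptotagmin probe sets were higher in replicates 5 to 9 without overlap and 2 were lower, while 28.2% and 12.1% of all annotated probe sets behaved so. Syt1 read 6.22, 6.18, 6.53, 6.73 and 6.49 there, Syt6 read 6.17, 6.00, 5.15, 5.88 and 5.30, and Syt11 read 7.51, 7.33, 6.55, 6.99 and 7.19. All 5 values of each of these 3 genes exceeded every one of the other 15 arrays, P3 and P21 included. The share of all annotated probe sets that did so was not counted, so this is not read as particular to these genes. Syt5 went the opposite way, with 3.67, 4.21, 5.97, 4.26 and 4.20 against 6.04 to 6.71 in replicates 1 to 4, which placed 4 of 5 arrays in the P21 range. Syt3 probe set 1383994_at read 8.57, 8.51, 8.48, 8.61 and 8.72, within the P3 range and below all of replicates 1 to 4.

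With replicates 5 to 9 standing for P8, 9 synaptotagmin probe sets were called between P3 and P8 and 7 between P8 and P21. With replicates 1 to 4 these counts were 2 and 2. The counts are not out of the same 9 tested probe sets. Syt4 probe set 1387662_at passed the filter here, above log2 4 on 3 of the 5 replicates, 1 P3 array and 1 P21 array. The median over all probe sets shifted by 0.31 and -0.37 under this replacement. Most of the array was called under this setting too: of 17136 probe sets tested, 6557 were higher and 4332 lower at P8 than at P3, and for P21 against P8 these counts were 4150 and 6651. The Syt5 step from P3 to P8 became -2.12 ± 0.34 (limma adjusted p = 4.51e-05) and its second step minus first step 1.88 (adjusted p = 0.0121). Its step from P8 to P21 was then -0.24 ± 0.36 and no longer called (adjusted p = 0.569). The Syt3 step from P3 to P8 became 0.15 ± 0.18 (adjusted p = 0.476) and its next step 1.66 (adjusted p = 1.91e-06). The Syt12 step from P3 to P8 became 2.37 (adjusted p = 8.03e-06). The differences from P3 to P21 do not use P8, though their standard errors do, and the Syt9 call ended under this setting (adjusted p = 0.136). The mean of 10 microglial genes was 5.60 to 6.61 in replicates 5 to 9 and 4.04 to 5.06 in replicates 1 to 4, and Slc17a6 was 9.35 to 11.10 and 11.30 to 11.72. Bushy cell genes averaged 6.85 to 7.12 and 7.66 to 8.71, and granule cell genes 6.79 to 7.69 and 4.81 to 5.77. The gap between the 3' and 5' actin controls was 0.72 to 2.64 and 4.07 to 4.46. The part of these differences in the synaptotagmin values was not tested, and the labels name no reason for them.

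The genes whose pattern over the 15 arrays lay nearest to a member were found by the root mean square difference of centred log2 levels, among 4458 probe sets (4459 for Syt1) of other genes whose age means spanned at least 1. For Syt3 they were Apbb3 (0.23), the SNAP adaptor Napa of SNARE disassembly (0.24) and Fgf12 (0.25), whose means at P3, P8 and P21 were 7.41, 8.41 and 9.13, 7.82, 8.53 and 9.27, and 7.82, 8.45 and 9.52. For Syt5 they were Marchf9 (0.34), Rimklb (0.35) and Nnat (0.36), with means of 6.98, 6.59 and 4.60, 10.73, 10.15 and 8.26, and 11.08, 11.18 and 8.61. For Syt2 the nearest were H1f6, Epb41 and Ecpas at 0.56 to 0.57, and for Syt1 Klhdc1, Uqcc5 and Itsn1 at 0.38 to 0.41. The age means of Syt1 ran only from 5.06 to 5.33, so genes as flat as Syt1 were not among the candidates. Its 3 listed genes rose with age, with means of 5.57, 6.12 and 6.58, 5.65, 6.01 and 6.66, and 6.08, 6.71 and 7.08, and do not share its pattern. The distances were shorter for Syt3 than for Syt2.

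Among relatives with C2 domains outside the 10 genes, Syt16 and Syt17 fell from P8 replicates 1 to 4 to P21. Both were also lower at P21 than at P3 (-2.99, and -2.58 by probe set 1398305_at, limma adjusted p = 6.57e-05 and 1.87e-05). The steps of the related lists were not examined with P8 replicates 5 to 9, so the step at which these genes fell is not settled. Of 21 listed relatives, 13 had tested probe sets, 15 in number. From P3 to P21 2 were higher, 4 were lower and 9 were not called, with a median of 0.11 against 0.02 over all probe sets, of which 20.1% were higher and 19.0% lower. From P3 to P8 none of the 15 was called, where 7.81% of all probe sets were higher and 7.75% lower. From P8 to P21 1 was higher and 4 were lower, 2 of them probe sets of Syt17, where 8.31% and 8.42% of all were. Syt16, a member that does not bind calcium, averaged 8.24, 8.17 and 5.24 at P3, P8 and P21, and fell by 2.93 ± 0.48 from P8 to P21 (limma adjusted p = 7.91e-04). Syt17, known as B/K protein, averaged 5.13, 5.40 and 2.54 by probe set 1398305_at and fell over that step (-2.86 ± 0.36, adjusted p = 1.23e-04). Its P21 level lies below log2 4, so it passed the filter through the earlier ages and the size of the fall is uncertain. Its other probe set, 1370418_s_at, averaged 6.80, 6.83 and 4.17. The remaining members called over the whole span were Esyt2, a tether between endoplasmic reticulum and plasma membrane (lower, -0.73 by 1 of its 2 tested probe sets), Sytl2, a Rab27 effector (higher, 1.76), and Syt15 (higher, 0.45).

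The fusion proteins on which synaptotagmins act moved in both directions. Of 26 tested probe sets for 17 genes, 12 were higher at P21 than at P3, 4 were lower and 10 were not called, with a median of 0.33, while 20.1% and 19.0% of all probe sets were called. Vamp1 and Nsf, the ATPase of SNARE disassembly, gave 6 of the 12 with 3 probe sets each. The 4 lower were Cplx3 (-2.74), Stx1a (-2.46), Vamp3 (-1.73) and Vamp2 (-0.97), a complexin, a plasma membrane SNARE and a pair of vesicle SNAREs, and Cplx3 and Stx1a were below log2 4 at P21. The other tested Vamp2 probe set, 1371160_at, was dimmer and not called (0.11, limma adjusted p = 0.860). Vamp1, a vesicle SNARE, was called higher by all 3 of its probe sets, and the brightest averaged 9.08, 11.38 and 11.52 at P3, P8 and P21. Napa rose by 0.70 ± 0.19 from P3 to P8 and 0.74 ± 0.19 from P8 to P21 (limma adjusted p = 0.0198 and 0.0163), while this Vamp1 probe set rose by 2.30 ± 0.20 at the first step (adjusted p = 1.99e-05) and stood at 0.15 ± 0.21 at the second (adjusted p = 0.685).

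Proteins that sort synaptotagmin back to vesicles were split, with 4 of 12 probe sets higher at P21 than at P3, 3 lower and 5 not called (median 0.19), near the 20.1% and 19.0% of all probe sets. Sv2b, a vesicle protein that binds synaptotagmin, rose by 1.00 ± 0.19 over the whole span by 1 of its 2 called probe sets, and Ap2m1, the adaptor subunit that takes up its cargo in endocytosis, by 1.13 ± 0.20 (limma adjusted p = 7.09e-04 and 4.12e-04). A dimmer tested Sv2b probe set, 1375142_at, was not called (0.33, limma adjusted p = 0.330). Of 13 probe sets for calcium channels and their release-site scaffolds, 3 were higher, 3 lower and 7 not called (median 0.13), also near the 20.1% and 19.0% of all. The channel subunit Cacnb2 rose by 1.67 ± 0.19 and the scaffold Rimbp2, called by 2 of its 4 probe sets, fell by 1.48 ± 0.16 (adjusted p = 7.36e-06 and 5.71e-06).

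**Figure D5:**
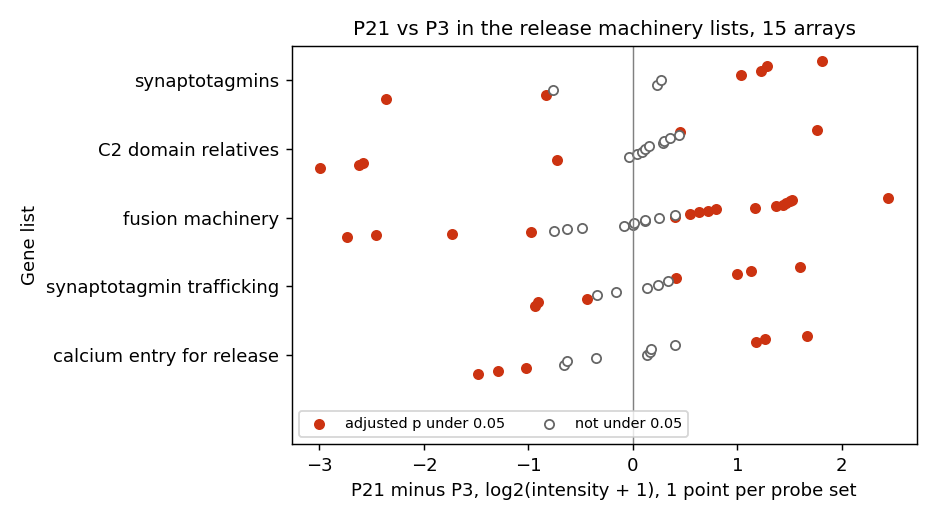
Differences between P21 and P3 in log2(intensity + 1) on the horizontal axis, 1 point per tested probe set, for the synaptotagmins and 4 lists of related genes on the vertical axis; filled points have a limma adjusted p under 0.05. The synaptotagmins spread from -2.36 to 1.81 and each of the other lists also lies on both sides of 0.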

How the data were processed

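The authors deposited 31099 probe sets for 20 arrays, each cell a linear intensity. The submitters' processing notes name GCRMA without version or role. The deposited intensity values are linear and have a trimmed mean of 100.0 on every array; no source used here says how the authors reached this scale. Values were analysed as log2(intensity + 1), a pseudocount that understates changes of dim genes. limma 3.58.1 in R 4.3.3 (lmFit, eBayes) fitted 1 mean per age over 15 arrays to the 15650 probe sets with 1 annotated gene that exceeded log2 4 on 5 or more arrays. All adjusted p are limma's after Benjamini-Hochberg over the probe sets tested in the same fit, called under 0.05, unless a permutation test is named. Fits under other settings could test other numbers of probe sets, from 9253 with a filter at log2 6 to 20832 without a filter. Their adjusted p therefore also reflect the number of tests. The fit was tested on simulated data. No pair of arrays was identical.

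Members and gene lists were chosen with earlier results of these data known. Named genes are all members, the 2 genes with the smallest p from P3 to P21 in each related list, and the 3 nearest patterns for Syt1, Syt2 and the members with the largest rise and fall. Esyt2, Sytl2, Syt15, Nsf, Cplx3, Stx1a, Vamp3 and Vamp2 were named after their values were seen. Marker lists other than those described (precursors, astrocytes, endothelial and granule cells) showed mean levels from P3 to P21 of 6.05 and 4.96, 8.68 and 8.40, 6.18 and 6.35, and 6.03 and 6.29. Equal replicate numbers did not pair arrays: the correlation of deviations ran from -0.06 to 0.08 over 13 pairs.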

Additional observations from a re-analysis of the deposited data

Results flagged for a closer look

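In 6 of the 56 groups of arrays examined (14 probe sets in 4 sets of arrays) 1 array lay far from the others of its group, where chance alone flags about 1 in 20 groups. Syt9 read 1.49 in P3 replicate 1, with the nearest P3 array at 3.72, and the rise from P3 to P21 was 0.63 without it. Syt12 read 6.18 in P21 replicate 1, with the next array at 5.13. Syt3 read 8.99 by probe set 1383994_at in P3 replicate 6, against 8.45 in the next array. Syt5 read 5.97 in P8 replicate 7, one of the arrays given apart, against 4.26 in the next. The other 2 values came from dim probe sets: Syt3 at 2.23 by 1369058_at in P21 replicate 1, and Syt7 at 2.98 by 1370514_a_at in P8 replicate 2.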

How the results depend on the processing

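The 6 synaptotagmin probe sets called from P3 to P21 became 3 with a filter at log2 6 and 2 over all 20 arrays, and 4 to 7 with single arrays left out. At the higher filter only Syt3, Syt4 and Syt5 were still tested, and all were called, Syt4 newly so. Over all 20 arrays 1008 of 17325 probe sets were called higher and 1176 lower, against 3139 and 2975 of 15650 in the main fit. From P3 to P8 the 2 calls became 1 with the higher filter, 1 with the replicate number as a block, 6 over 20 arrays and 9 with P8 replicates 5 to 9 in place of 1 to 4, and 1 to 3 with single arrays left out. From P8 to P21 the 2 calls became 7 with that replacement. Where replicates 5 to 9 were fitted, Syt4 probe set 1387662_at passed the filter as well. Those counts are not out of the same 9 tested probe sets. Of all probe sets, 2743 were called higher and 1746 lower from P3 to P8 over 20 arrays, against 1222 and 1213 in the main fit. Over all 20 arrays the median of all probe sets shifted by 0.14 and -0.20 for the 2 steps. The first step then turned to -0.92 for Syt4 and 0.66 for Syt6. The second turned to -0.54 for Syt1, -0.26 for Syt2, 0.16 for Syt4, -0.60 for Syt9, -0.69 for Syt11 and -0.53 for Syt12, and the Syt5 second step minus first step to 0.12. With P8 replicates 5 to 9 in place the first step was -1.67 for Syt4 and 1.54 for Syt6. The second was -1.10 for Syt1, -0.61 for Syt2, 0.90 for Syt4, -1.12 for Syt9, -1.28 for Syt11 and -1.14 for Syt12, and the Syt5 contrast 1.88. Steps near 0 turned with quantile normalization (Syt4 first step -0.036, Syt9 second step -0.050) and with array weights (Syt4 first step -0.39, second steps -0.0059 for Syt1 and -0.046 for Syt9). Leaving out single arrays gave first steps of -0.054 to 0.25 for Syt1 and -0.23 to 0.29 for Syt4, and second steps of -0.28 to 0.45 for Syt2, -0.12 to 0.19 for Syt9, -0.023 to 0.14 for Syt11 and -0.0043 to 0.34 for Syt12. Syt2 minus Syt1 gave 0.69 to 1.25 from P3 to P21 and -0.43 to 0.43 from P8 to P21, where a pseudocount of 16 gave -0.032. The replicate block, whose numbers do not pair these arrays, gave -0.13 there, and ended the calls of Syt9 from P3 to P21 (1.08, adjusted p = 0.0772) and Syt12 from P3 to P8 (1.01, adjusted p = 0.0764). Apart from the changes made by the settings' own construction, the cause was not tested. Signals below log2 4 limit what can be said of Syt2, Syt6, Syt7, Syt9, Syt12, Syt17, the size of the Syt5 fall and the dim probe sets of Syt3 and Syt4. At P3 Syt2 exceeded log2 4 on 4 of 6 arrays and Syt12 on 3 of 6, and at P21 Syt5 did so on 4 of 5.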
